A study of Mus musculus with 4 samples.

Results

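Pi16-type fibroblasts are the cardiac fibroblasts in which more UMIs (unique molecular identifiers, each standing for 1 captured RNA molecule) were counted for Pi16 than for Smoc2. A barcode was kept with at least 500 UMIs and at most 20% mitochondrial UMIs. It was called a fibroblast when Col1a2, Dcn and Pdgfra together held at least 10 of every 10000 UMIs and no UMI of Ptprc (CD45) or Cdh5 (VE-cadherin) was found. A limit was then applied: Timp1, Cthrc1 and Tnc together had to stay below 10 per 10000 UMIs, which sets aside activated, matrix-secreting fibroblasts. The rule gave 1076 Pi16-type cells among 5749 fibroblasts and 40438 kept barcodes, beside 2686 Smoc2-type cells, which met the same conditions with more Smoc2 than Pi16 UMIs. The members were thus chosen by their own UMIs of these genes, so the levels of those genes and every contrast between the types are descriptions, given without a test.

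The study deleted the transcription factor gene Tcf21 in cardiac fibroblasts of mice and profiled interstitial cells of the heart by droplet single-cell RNA sequencing. Every mouse carried Tcf21-MerCreMer, a tamoxifen-inducible Cre driven from Tcf21, and every group received tamoxifen. The groups called floxed-labelled here also carried the label flox, and each genotype was studied without injury or 3 days after myocardial infarction. Each of the 4 groups was a single library of live nucleated sorted cells, so no comparison has a replicate. The labels leave unsaid what stretch of Tcf21 is floxed, how many animals went into a library, and their age. Where a level is given for every library, the order is the uninjured control, the uninjured floxed-labelled, the infarcted control and the infarcted floxed-labelled library.

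Fibroblasts that express Pi16, a secreted peptidase inhibitor, lie in the outer coat (adventitia) of vessels in many organs and in connective tissue sheets. They are known as matrix-producing cells with progenitor-like marker genes such as Dpp4, Ly6a and Cd34. Fibroblasts rich in Smoc2, a matricellular calcium-binding protein, are by contrast typical of the interstitium between muscle cells. In mm10 (GENCODE M21) Pi16 (ENSMUSG00000024011) is on chromosome 17 from 29317680 to 29330593 and Smoc2 (ENSMUSG00000023886) on the same chromosome from 14279506 to 14404790. Of the genes named below, Tcf21 lies on chromosome 10 from 22817281 to 22820174, Sema3c on chromosome 5 from 17574281 to 17730268 and Tmem100 on chromosome 11 from 90030348 to 90036508, and all are annotated as protein coding.

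The deposited matrices held 9149, 11541, 10203 and 10873 barcodes with 55710468, 88509231, 129704045 and 127757911 UMIs. Between 19 and 41 barcode sequences occurred in any pair of libraries, and no member barcode was shared. The libraries differed in make-up: leukocytes were 1226 and 960 barcodes in the uninjured libraries and 7582 and 7257 in the infarcted libraries, while endothelial barcodes numbered 4853 and 6492 against 208 and 511. Pi16-type cells were sequenced to a median of 11923.5, 14225.5, 14993 and 11768 UMIs, and their sums held 4219104, 6410570, 184983 and 3014697 UMIs. The infarcted control library held 13 Pi16-type cells, so every value from it rests on those cells.

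Tcf21, the targeted gene, was not lower in the floxed-labelled Pi16-type cells without injury. Its level was 101, 179, 103 and 88.9 CPM (UMIs per 1000000 UMIs summed over the cells), from 425, 1150, 19 and 268 UMIs. The log2 ratio of floxed-labelled to control was 0.83 without injury and -0.21 after infarction. Reads from the 3' end may not see a deletion elsewhere in the gene, so these levels check neither label, and the term "floxed-labelled" is kept throughout for that reason. Smoc2-type cells had 91.6, 137, 32.2 and 52.4 CPM of Tcf21. MerCreMer, the Cre transgene added to the reference, was found at 11.1, 4.52, 0 and 4.31 CPM in Pi16-type cells, and eGFP, a second added sequence, at 717, 382, 757 and 600 CPM.

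Pi16-type cells were a sizeable minority of fibroblasts in 3 libraries and few in the infarcted control library. They numbered 360 of 1673 fibroblasts (21.5%, exact 95% interval 19.6 to 23.6) in the uninjured control and 468 of 1960 (23.9%, 22.0 to 25.8) in the uninjured floxed-labelled library. After infarction they numbered 13 of 806 (1.61%, 0.862 to 2.74) in the control and 235 of 1310 (17.9%, 15.9 to 20.1) in the floxed-labelled library. The intervals of the uninjured libraries overlapped, and that of the infarcted control overlapped no other; all such intervals cover counting error only, not the spread between mice. Counting Pi16 and Smoc2 after thinning every fibroblast to 2000 UMIs gave 20.7%, 24.7%, 1.15% and 16.0%, leaving out 91, 289, 25 and 44 shallower cells. The other conditions of the rule were applied at full depth. Smoc2-type cells were 70.7%, 61.0%, 8.93% and 18.0% of fibroblasts, in the same order.

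The limit on Timp1, Cthrc1 and Tnc removed most fibroblasts of the infarcted libraries. It took out 18, 10, 631 and 727 fibroblasts, which is 1.08%, 0.510%, 78.3% and 55.5% of them. With no limit, cells with more Pi16 than Smoc2 were 369, 477, 45 and 363, or 22.1%, 24.3%, 5.58% and 27.7% of fibroblasts. Of those, the limit took away 2.44%, 1.89%, 71.1% (55.7 to 83.6) and 35.3% (30.3 to 40.4). Of the cells with more Smoc2 than Pi16 it took away 0.756%, none of 1196 (which allows up to 0.308%), 86.9% (83.8 to 89.6) and 65.7% (62.0 to 69.2). In both infarcted libraries the share over the limit was lower among cells with more Pi16, and the bounds of 83.6 and 83.8 in the control almost met. These intervals cover counting error among the cells of 1 library only. Both the limit and the groups use genes of the rule, so the difference is a description without a test. Among cells within the limit, Pi16-type cells were 23.3%, 28.1%, 15.3% and 49.9% of both types together. These are shares of the sequenced fibroblasts after digestion and sorting, and a change in one type cannot be told apart from a change in the others.

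**Figure D1:**
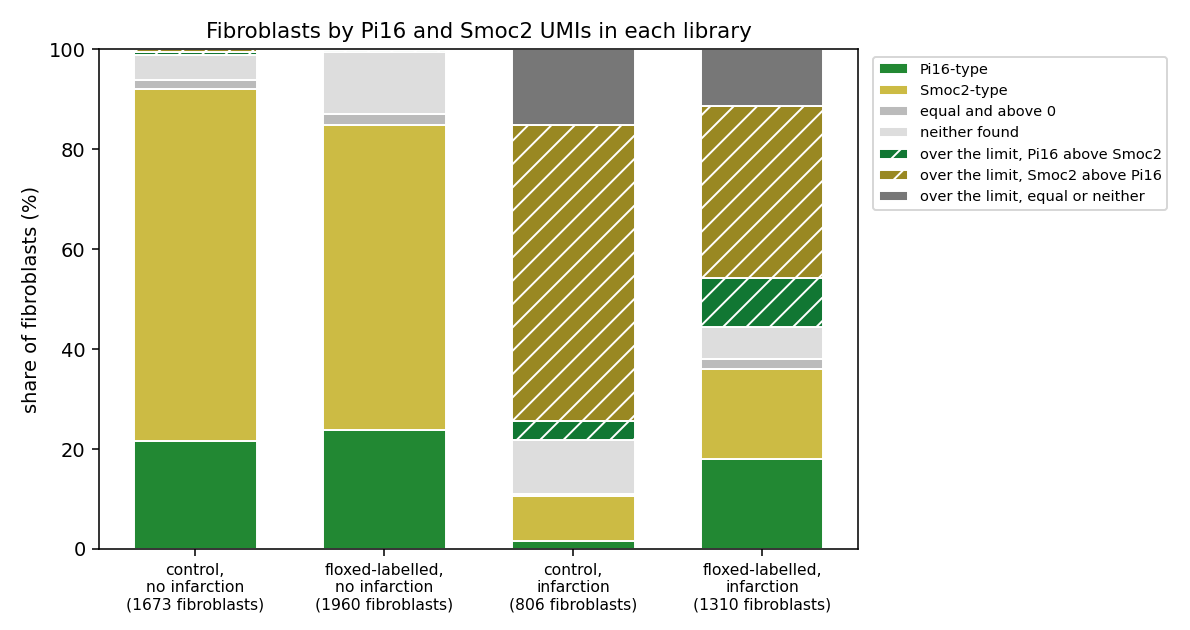
Bars give the share of fibroblasts (%) in each of the 4 libraries by their Pi16 and Smoc2 UMIs, with hatched and dark grey parts for cells over the limit on Timp1, Cthrc1 and Tnc. Pi16-type cells are 21.5%, 23.9%, 1.61% and 17.9%, and cells over the limit are 78.3% and 55.5% of fibroblasts in the infarcted control and floxed-labelled libraries.

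The excess of Pi16 over Smoc2 was wide in most members and narrow in some. The median Pi16 count in a Pi16-type cell was 22, 27, 5 and 19 UMIs, and the median Smoc2 count in the same cells was 6, 9, 4 and 6. No Smoc2 UMI was found in 46, 67, 5 and 29 of the members. Pi16 exceeded Smoc2 by a single UMI in 49, 62, 5 and 24 cells, and by at least 10 UMIs in 194, 264, 3 and 126. Summed over members, Pi16 reached 2335, 2845, 887 and 2185 CPM, against 594, 901, 49.5 and 391 CPM in Smoc2-type cells. In 6, 10, 3 and 27 members the value of Timp1, Cthrc1 and Tnc lay between 5 and 10 per 10000, just inside the limit.

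The other markers given for these cells, none of them in the rule, were higher in Pi16-type than in Smoc2-type cells in the 3 libraries with over 200 members. Sema3c, a secreted semaphorin of axon and vessel guidance, had 356, 354, 21.6 and 120 CPM in Pi16-type cells and 29.3, 25.7, 9.78 and 15.8 in Smoc2-type cells. Tmem100, a membrane protein downstream of BMP signalling, had 280, 306, 32.4 and 122 against 26.6, 27.0, 4.60 and 19.0 CPM. Cd248 (endosialin), a stromal surface glycoprotein, had 585, 476, 146 and 275 against 101, 67.7, 43.2 and 73.2 CPM. For each of these the Pi16-type level was the higher in every library, but the infarcted control sum held only 4, 6 and 27 UMIs of them. Efhd1, a mitochondrial calcium-binding protein, had 149, 190, 16.2 and 35.2 against 27.1, 37.6, 0 and 8.20 CPM. Cilp, a cartilage intermediate layer protein that binds TGF-beta, had 326, 287, 211 and 269 against 143, 68.1, 31.6 and 175 CPM, and its log2 ratio was 0.62 in the infarcted floxed-labelled library. Without the cells rich in tendon and cartilage genes described further on, its Pi16-type level was 221 and 194 CPM in the uninjured control and floxed-labelled libraries. Dpp4 (CD26), a surface peptidase and marker of adventitial progenitors, had 88.4, 87.8, 5.41 and 40.5 against 25.5, 15.4, 12.7 and 7.32 CPM, so the infarcted control library, with 1 UMI, went the other way.

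**Figure D2:**
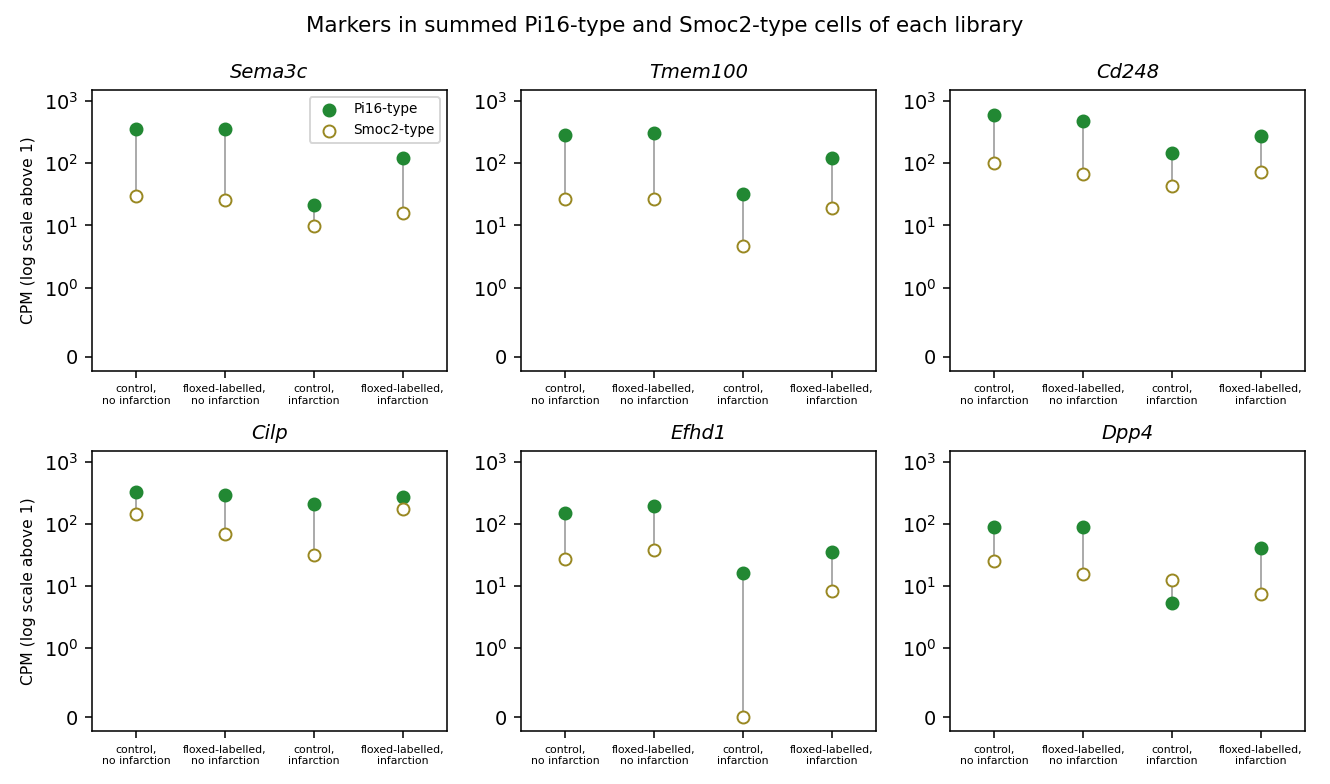
Each panel plots CPM (log scale above 1) of a marker in summed Pi16-type cells (filled) and Smoc2-type cells (open) of the 4 libraries. Sema3c, Tmem100 and Cd248 are higher in Pi16-type cells in every library, and Dpp4 is lower in them in the infarcted control library (5.41 against 12.7 CPM).

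The markers were carried by many members, and not all members carried them. Sema3c was found in 247 of 360, 270 of 468, 3 of 13 and 115 of 235 Pi16-type cells, and Cilp in 98, 123, 4 and 91, so Cilp came from fewer cells. After each cell was thinned to 2000 UMIs, Sema3c was found in 33.8% of Pi16-type, 3.77% of Smoc2-type and 0.309% of endothelial cells of the uninjured control; unthinned, the shares were 68.6%, 15.1% and 0.577%, at median depths of 11923.5, 9875.5 and 3771 UMIs. Pi16 itself was found in 92.5% of thinned Pi16-type cells and in 9.54% of thinned and 18.1% of unthinned endothelial cells of that library. The endothelial shares can include free RNA, and how much of them is free RNA was not tested. Nor was the part of free Pi16 RNA in members with a single UMI more of Pi16 than of Smoc2. Thinned Cd248 shares were 52.6%, 39.3%, 8.33% (1 of 12 cells) and 28.1% of Pi16-type cells. At least 2 of Sema3c, Cd248, Tmem100, Cilp and Efhd1 were found in 50.3%, 43.2%, 16.7% and 27.7% of thinned Pi16-type cells and in 5.48%, 6.29%, 1.43% and 2.97% of thinned Smoc2-type cells. None of the 5 was found in 21.4%, 28.5%, 66.7% and 35.9% of the Pi16-type cells. The sums of the 3 larger groups thus carried the given markers, and the 13 cells of the infarcted control library are called Pi16-type only by the rule. These markers were given with earlier results of these data known, so they are no independent evidence for the label.

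Across all genes, few were at least 2-fold apart the same way in every library, a line that the 13-cell library also had to pass. Of 6454 genes with a mean of at least 20 CPM, 34 were at least 2-fold higher in Pi16-type cells in every library (0.527%) and 2 at least 2-fold lower (0.031%). Since the rule used this contrast, nothing is read from those shares. In another setting Pi16 and Smoc2 were counted after thinning each cell to 2000 UMIs, and the chosen cells were summed at full depth. Then 3 genes were higher, all among the 34, and 1 lower, which was neither of the 2. The infarcted control held 9 Pi16-type cells under this setting. The 12 named higher genes with a ratio in every library had means from 1.23 (Mfap5) to 2.49 (Sema3c), and Hsd11b1 and Adm had -1.52 and -1.33. The median of all mean log2 ratios was -0.04. In single libraries 128, 129, 617 and 67 genes were at least 2-fold higher and 108, 71, 787 and 45 lower, so the 13-cell library scattered most. For 18 of the 34 genes its Pi16-type sum held fewer than 10 UMIs. Without that library 49 genes were higher, including 33 of the 34, and 8 lower. Without the infarcted floxed-labelled library 59 genes were higher.

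The genes highest in Pi16-type cells included guidance, BMP and surface proteins. Tmem100 had a mean log2 ratio to Smoc2-type cells of 3.10 ± 0.41 (SD, 4 libraries), Sema3c of 2.86 ± 1.20 and Cd248 of 2.25 ± 0.50. Over the 3 larger libraries Sema3c reached 3.44 ± 0.45, since the infarcted control gave 1.14. Limch1, an actin-linked LIM-domain protein, had 2.50 ± 0.43, and Htra4, a secreted serine protease of the HtrA family, had 2.27 ± 0.05, the narrowest spread of the named genes. Htra4 levels were 117, 113, 27.0 and 93.9 CPM in Pi16-type and 23.6, 24.1, 5.75 and 18.7 CPM in Smoc2-type cells. The infarcted control Pi16-type sum held only 5 UMIs of Htra4 and 4 of Limch1, so their ratios there have wide counting error. Over the 3 larger libraries Htra4 had 2.28 ± 0.05. Adgrd1, an adhesion G-protein-coupled receptor, had 2.08 ± 1.05, and the scavenging chemokine receptor Ackr3, which binds Cxcl12, had 1.98 ± 0.88. Cd55, which protects cells from complement, had 1.76 ± 0.37 with 577, 503, 195 and 271 against 183, 161, 39.7 and 99.8 CPM.

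Secreted inhibitors and matrix genes completed the named genes. Nbl1 (Dan), a BMP antagonist, had a mean log2 ratio of 1.70 ± 0.48 and Dkk3, of the Dickkopf family, 1.72 ± 0.69. Cst6, a cysteine protease inhibitor, had 1.99 ± 0.81, Lrrn4cl, a membrane protein, 1.77 ± 0.66, and Pamr1, a secreted protein with peptidase-like domains, 1.64 ± 0.51. The infarcted control Pi16-type sum held 4 UMIs of Dkk3, 7 of Lrrn4cl and 1 of Pamr1. Mfap5, a microfibril component, was the most abundant of them at 1898, 2043, 2006 and 2149 CPM against 742, 799, 261 and 1074 CPM. Its lowest ratio, in the infarcted floxed-labelled library, lay just past the 2-fold line. Clu (clusterin) had the highest mean, 3.14 ± 0.88, but came from 23, 46, 2 and 6 cells, and 1 cell held 52 of 54 UMIs in the infarcted control and 115 of 120 in the infarcted floxed-labelled library.

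Only 2 genes were lower in Pi16-type cells in every library. Hsd11b1, the enzyme that regenerates active glucocorticoids, had 71.3, 76.0, 27.0 and 143 CPM against 404, 360, 79.4 and 288 CPM in Smoc2-type cells, a mean log2 ratio of -1.83 ± 0.67. Adm, the precursor of the vasodilator peptide adrenomedullin, had 32.7, 34.9, 54.1 and 70.7 against 212, 160, 117 and 154 CPM, a mean of -1.78 ± 0.79. With a margin of at least 2 UMIs between Pi16 and Smoc2 neither was past 2-fold in every library, and the means were -1.79 for Hsd11b1 and -1.57 for Adm. The chemokine Cxcl14 had 182, 192, 0 and 273 against 518, 725, 46.6 and 307 CPM, with a log2 ratio of -0.17 in the infarcted floxed-labelled library. Lpl, lipoprotein lipase, had 584, 923, 270 and 548 against 1309, 1908, 196 and 781 CPM, lower in Pi16-type cells in the 3 larger groups and higher in the infarcted control.

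**Figure D3:**
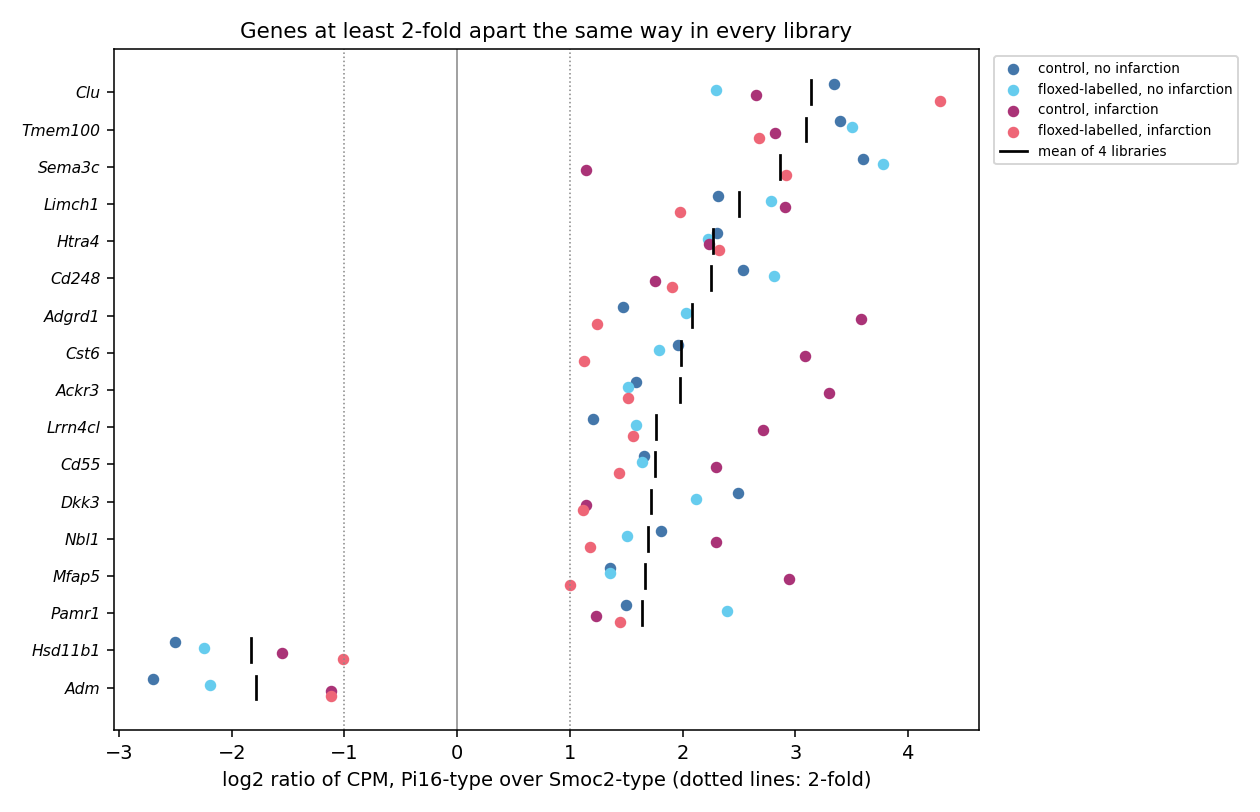
Points give the log2 ratio of CPM in Pi16-type over Smoc2-type cells in each library for the 17 named genes, and black marks the mean of the 4 libraries. Htra4 lies within 2.23 to 2.32 in every library, though the infarcted control Pi16-type sum held 5 UMIs of it. In that library, with 13 Pi16-type cells, Sema3c is at 1.14 and Adgrd1 at 3.59.

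By gene list, the tendon and cartilage genes had a median of 1.66, with none of 7 tested past 2-fold in every library, and are described by cell further on. Of 26 adventitial fibroblast genes tested, 9 were at least 2-fold higher in every library and none lower, and the list's median of mean log2 ratios was 1.33, beside -0.04 for all genes. The list holds Sema3c and Cd248 and was drawn up with earlier results known, so it is no independent evidence. Ly6a (Sca-1) had 995, 979, 546 and 1140 against 390, 386, 188 and 574 CPM, and Igfbp6, which binds IGF-2, had 934, 1070, 346 and 595 against 494, 518, 62.1 and 302 CPM. Among 20 elastic fibre and microfibril genes 1 was higher in every library, Mfap5, and the median was 0.53; Fbn1, the microfibril protein fibrillin-1, had 0.90 ± 0.20. The 12 fibrillar and fibril-associated collagens had none past the line either way and a median of 0.05, and Col1a1 stood at 1368, 1513, 2703 and 1868 against 1499, 1525, 1947 and 1959 CPM. The 21 interstitial fibroblast genes had 1 lower, Hsd11b1, and a median of 0.01.

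Signalling lists had between 0 and 3 members past the line. Tmem100 was the only one of 22 TGF-beta and BMP pathway genes, with a list median of 0.25. Among 14 semaphorin and axon guidance genes 3 were higher, Sema3c, Sema3d and the netrin Ntn4, and the median was -0.04. Ntn4 had 216, 214, 27.0 and 83.6 against 98.8, 93.8, 8.63 and 36.3 CPM. Fgf18, the only one of 12 growth factor genes to pass, had 47.9, 43.4, 32.4 and 38.8 against 7.35, 8.71, 8.63 and 14.9 CPM in the Pi16-type and Smoc2-type cells. None of 35 fibroblast transcription factors passed either way, and their median was 0.27. Tcf21 was among them, at a mean log2 ratio of 0.74 ± 0.67.

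Markers of other cell types were found in the sums of both types. The 10 endothelial markers summed to 315, 441, 91.9 and 72.6 CPM in Pi16-type cells and to 276, 384, 132 and 60.3 CPM in Smoc2-type cells, and 8 of them were at 0 in the infarcted control. The 11 leukocyte markers summed to 94.1, 81.4, 616 and 321 against 158, 91.1, 279 and 220 CPM. The 11 mural markers summed to 125, 295, 205 and 245 CPM, with Myh11 at 0 in 3 of the libraries, and the 10 cardiomyocyte markers to 46.5, 139, 10.8 and 38.1 CPM. The 9 mesothelial markers summed to 0.237, 1.25, 151 and 15.3 CPM, with Msln and Muc16 at 0 in every library. All 20 UMIs of Krt8 and all 17 of Krt19 in the infarcted floxed-labelled library each lay in 1 cell. So did all 10 UMIs of Wt1 and all 4 of Upk3b in the infarcted control. The 7 Schwann and neural markers summed to between 23.2 and 67.9 CPM and the 5 adipocyte markers to at most 8.53 CPM, with Adipoq at 0 in every library. Their part in the contrasts was not tested.

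Sema3c and Mfap5 were higher, and Hsd11b1 and Lpl lower, with each step of the Pi16 share of a cell in the 3 libraries with over 200 members. Cells of both types with at least 10 Pi16 and Smoc2 UMIs were sorted by Pi16 as a percent of both, in 6 bins from 0 to 10 up to 90 to 100. In the uninjured control Sema3c stood at 13.3, 23.1, 58.8, 224, 505 and 711 CPM along the bins, which held 368, 367, 324, 161, 91 and 45 cells. In the uninjured floxed-labelled library it stood at 11.2, 14.5, 38.5, 152, 461 and 779 CPM, and in the infarcted floxed-labelled library at 2.21, 11.8, 24.4, 63.4, 170 and 301 CPM. Hsd11b1 went the other way in each of these libraries, from 603 to 21.3, from 521 to 14.7 and from 510 to 49.9 CPM. Lpl went from 1608 to 235, from 2601 to 512 and from 1353 to 390 CPM. Other markers were higher toward the top but not in order. In the uninjured control the fifth and last bins had 891 and 629 CPM of Cd248, 234 and 162 of Efhd1, and 129 and 70.6 of Dpp4. Tmem100 had 219 and 191 CPM in those bins of the infarcted floxed-labelled library. Cilp had 329, 208 and 574 CPM in the last 3 bins of the uninjured control, and 377 and 184 CPM in the last bins of the infarcted floxed-labelled library. Tcf21 lay between 87.0 and 106 CPM in the uninjured control. It was lowest at the Smoc2 end in the floxed-labelled libraries, with 130 CPM in the first, 239 in the fifth and 154 in the last bin without injury, and 39.7, 93.7 and 82.0 CPM after infarction. The infarcted control library held 23 such cells in all, with none in the top bin, and no order was read from it. Between the first and the last bin the median depth went from 9163 to 13651 UMIs in the uninjured control and from 13130 to 11165 in the infarcted floxed-labelled library; its part in these levels was not tested.

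**Figure D4:**
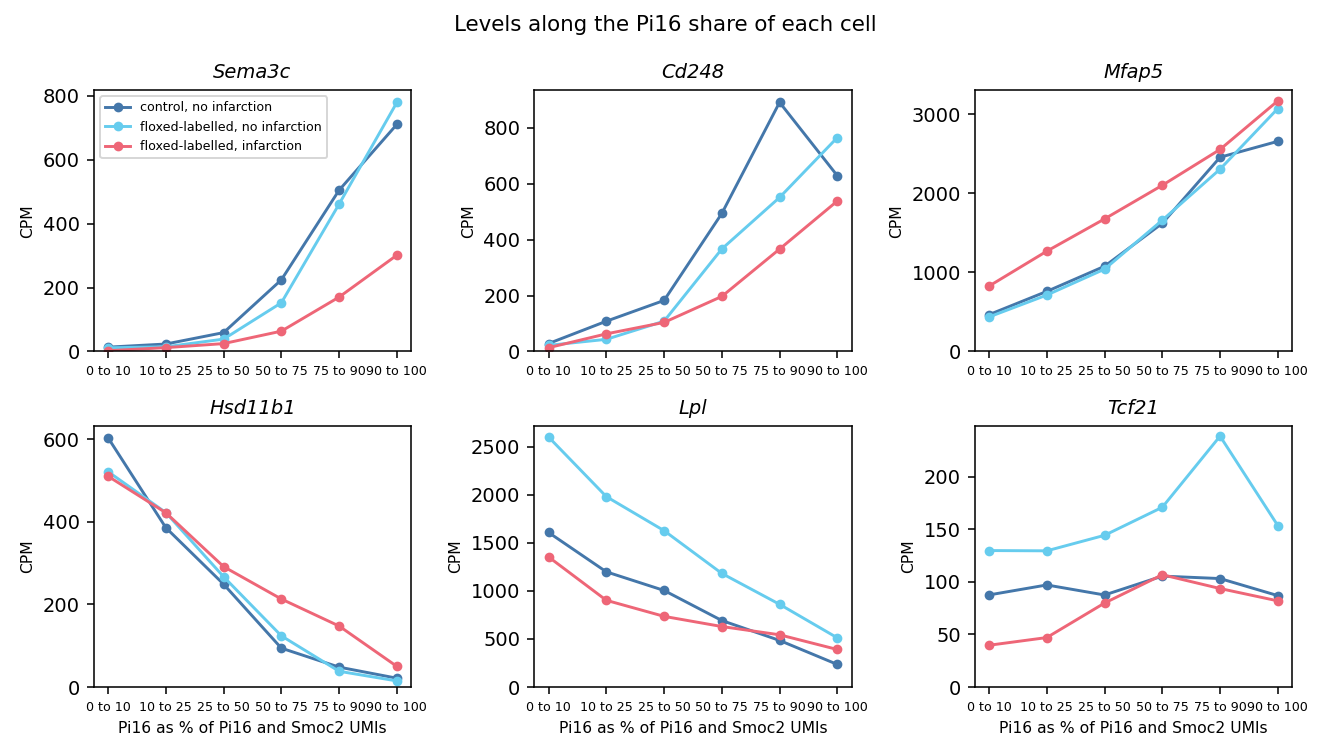
Lines give CPM in bins of cells by Pi16 as a percent of Pi16 and Smoc2 UMIs, for 6 genes and the 3 libraries with over 200 Pi16-type cells. Sema3c ranges from 13.3 to 711 CPM and Hsd11b1 from 603 to 21.3 CPM in the uninjured control, while Tcf21 stays between 87.0 and 106 CPM there.

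Cells next to the border between the types had Sema3c levels between those of all Smoc2-type and all Pi16-type cells. In the uninjured control, 64 cells with 1 or 2 more Pi16 than Smoc2 UMIs had 80.2 CPM of Sema3c, 28 cells with equal counts 129 CPM, and 72 cells with 1 or 2 more Smoc2 UMIs 40.8 CPM. In the uninjured floxed-labelled library the 3 values were 88.5, 34.6 and 54.8 CPM, from 93, 41 and 120 cells. In the infarcted floxed-labelled library they were 29.4, 17.7 and 37.6 CPM, from 47, 26 and 49 cells. These lie below the 356, 354 and 120 CPM of all Pi16-type cells in the same libraries, and above the Smoc2-type levels given earlier.

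A small share of the members carried tendon and cartilage genes. Comp (cartilage oligomeric matrix protein), Thbs4, Fmod (fibromodulin) and Chad (chondroadherin) are matrix proteins of tendon, valve and cartilage. Together they held at least 10 per 10000 UMIs in 19 of 360, 29 of 468, 0 of 13 and 1 of 235 Pi16-type cells, a line chosen after the values were seen. That is 5.28% (3.21 to 8.12), 6.20% (4.19 to 8.78), none and 0.426% (0.0108 to 2.35). These intervals cover counting error among the cells of 1 library only, so no difference between conditions is read from them. The limit had first taken out 55.5% of the fibroblasts of the infarcted floxed-labelled library. Smoc2-type cells passed the line in 4 of 1182, 5 of 1196, 0 of 72 and 3 of 236. The line was not a gap: 10, 8, 0 and 1 members lay between 10 and 20 per 10000 and 8, 8, 0 and 5 between 5 and 10.

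These cells had lower levels of most other markers of Pi16-type cells than the remaining members. In the uninjured control and floxed-labelled libraries Thbs4 stood at 1143 and 1787 CPM in them and at 6.05 and 8.52 CPM in the remaining members. Sema3c stood at 134 and 125 CPM against 370 in the remaining members of both libraries, Cd248 at 127 and 52.1 against 615 and 506, and Dpp4 at 0 and 4.73 against 94.0 and 93.7. Tmem100 stood at 107 and 149 against 291 and 317 CPM. Cilp was the exception, at 1973 and 1604 CPM against 221 and 194, and Dkk3 went with it at 617 and 573 against 90.8 and 48.6. Beside the Smoc2-type levels given earlier, Sema3c and Tmem100 were higher in these cells in both libraries, and Cd248 in the control only. Ecrg4, a secreted augurin precursor, stood at 1076 and 2094 against 28.5 and 5.18 CPM. Tcf21 stood at 43.5 and 37.9 against 104 and 189 CPM. Leaving these cells out left 32 genes higher and 2 lower in every library in the contrast with Smoc2-type cells, all of them among the 34 and 2.

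Between the uninjured libraries, floxed-labelled over control, few genes of the Pi16-type cells differed. Of 6606 genes tested, 21 were at least 2-fold higher (0.318%) and 31 lower (0.469%), and the median log2 ratio of all genes was -0.04. The markers stood level: Sema3c had 354 against 356 CPM and Mfap5 2043 against 1898. Of 25 adventitial genes none was higher and 1 lower, the hexosamine pathway enzyme Gfpt2, at 407 against 828 CPM (log2 -1.02), and the list's median was -0.00, or -0.18 in Smoc2-type cells. With 1 library for each group, no difference below can be set against the spread between mice, and intervals cover counting error only.

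Of the lower genes, 2 of 11 clock genes tested (Nr1d1 and Nr1d2, list median -0.25) and 1 of 8 complement genes (C7, list median -0.24) were past 2-fold, and neither list had a member past 2-fold higher. Nr1d1, the clock repressor REV-ERB alpha, had 25.4 CPM in the floxed-labelled and 114 CPM in the control Pi16-type cells, a log2 ratio of -2.16 (-2.43 to -1.91) beside -2.60 in Smoc2-type cells. Its partner Nr1d2 had 18.3 against 64.2 CPM, a log2 ratio of -1.82 (-2.14 to -1.50) beside -2.12. Nr1d1 was found in 92 of 468 and 213 of 360 cells, so it did not come from a few. Zbtb16 (PLZF), a glucocorticoid-responsive zinc finger factor, had 22.8 against 104 CPM, a log2 ratio of -2.19 (-2.47 to -1.92) beside -2.40. C7, a terminal complement component, had 117 against 338 CPM, a log2 ratio of -1.53 (-1.66 to -1.40) beside -1.40. The antiviral factor Zc3hav1 had 10.6 against 59.0 CPM and Syne2, a nuclear envelope protein, 67.1 against 197. Mmp3, the matrix protease stromelysin-1, had 11.1 against 60.0 CPM, from 12 and 39 cells. Gm12840 had 35.4 against 138 CPM.

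Higher in the floxed-labelled cells were a secreted factor and several RNAs of unsure origin. Angptl7, an angiopoietin-like matrix protein, had 152 CPM in the floxed-labelled cells and was found in 157 of 468 cells against 69 of 360, a log2 ratio of 1.60 (1.38 to 1.82) beside 1.63 in Smoc2-type cells. Sox4, a developmental transcription factor, had 94.7 against 45.7 CPM, a log2 ratio of 1.05 (0.81 to 1.29) beside 1.08. AW112010 had 71.8 against 24.9 CPM, Snhg8 133 against 64.7, Gm47283 125 against 42.2, D630033O11Rik 92.5 against 43.6 and 2310009A05Rik 51.0 against 25.8. The predicted genes Gm8797 and Gm10260 and the ribosomal retrogene Rps27rt can share reads with near-identical copies and are uncertain. Gm8797 had 138 against 3.32 CPM, Rps27rt 56.9 against 26.5, and Gm10260 0 against 60.0, at least 128-fold lower, with Smoc2-type log2 ratios of 5.34, 0.97 and -6.74. Chad had 72.1 against 10.4 CPM, from 12 and 4 cells, all of them among the tendon-type cells.

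A single cell carried the difference in Cxcl5, a neutrophil-attracting chemokine. It had 4.52 against 87.7 CPM, a log2 ratio of -4.28, but 354 of its 370 control UMIs lay in 1 cell. Without the cell richest in it in each library the ratio was 0.039.

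As groups, ER folding and respiratory chain genes had medians of opposite sign with no member past 2-fold. All 23 ER folding and secretion genes were tested, 0 passed 2-fold either way, and their median was -0.43 beside -0.44 in Smoc2-type cells. Hspa5 (BiP), the main ER chaperone, had 745 against 1389 CPM and Hsp90b1 1042 against 1623. The 36 nuclear respiratory chain genes also had 0 past 2-fold, and the list's median was 0.39 beside 0.42. Of 22 interferon-stimulated genes 1 was higher, Rtp4, and the median was 0.31 beside 0.36. Of 12 glucocorticoid-responsive genes 3 were lower, Zbtb16, Fkbp5 and Mt2, with Fkbp5 at 34.2 against 83.0 CPM. Between these libraries the Pi16-type median depth was 14225.5 against 11923.5 UMIs, the mitochondrial share 3.61% against 3.02%, and summed mural markers 295 against 125 CPM. Cardiomyocyte markers summed to 139 against 46.5 CPM, endothelial markers to 441 against 315 and leukocyte markers to 81.4 against 94.1. Their part in these medians was not tested.

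Between the floxed-labelled libraries, infarction over no injury, Pi16-type cells had lower levels of several of their markers. Of 6338 genes 99 were above 2-fold (1.56%) and 108 lower by as much (1.7%). With median-of-ratios scaling, which shifts the median of all genes by 0.11 from -0.10, they were 118 and 74. Of 26 adventitial genes 1 was higher and 4 lower, and the list's median was -0.52 beside -0.10 for all genes and -0.18 for the same list in Smoc2-type cells. Sema3c had 120 against 354 CPM, a log2 ratio of -1.56 (-1.73 to -1.40), found in 115 of 235 and 270 of 468 cells. Limch1 had 50.8 against 129 CPM (log2 -1.35), Dpp4 40.5 against 87.8 (log2 -1.12) and Pcsk6, a proprotein convertase, 527 against 1083 (log2 -1.04). Tmem100 had 122 against 306 CPM (log2 -1.33) and Efhd1 35.2 against 190 (log2 -2.44). These falls were not limited to Pi16-type cells. By the Smoc2-type levels given earlier, Efhd1 and Dpp4 were also past 2-fold lower after infarction in Smoc2-type cells. Sema3c and Tmem100 were lower there by less than 2-fold. A difference between the types was not tested. Over all members Mfap5 and Cilp stood level, at log2 ratios of 0.07 and -0.10. Without the tendon-type cells Cilp had 270 against 194 CPM. Has1, a hyaluronan synthase, was the adventitial gene that was higher, at 36.5 against 7.33 CPM.

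Of the named genes Cxcl5 and the clock factor Dbp had the largest ratios upward, 4.57 and 4.54, followed by Lox. Lox, the enzyme that cross-links collagen and elastin, had 142 against 10.9 CPM, a log2 ratio of 3.70 (3.33 to 4.09), found in 104 of 235 and 51 of 468 cells. Serpina3n, an acute-phase protease inhibitor, had 511 against 72.1 CPM, a log2 ratio of 2.83 (2.67 to 2.98). In Smoc2-type cells the ratios of Lox and Serpina3n were 3.03 and 3.30, and a difference between the types was not tested. Ier3, an early stress gene, had 247 against 39.2 CPM, and Trib1, a pseudokinase, 58.0 against 8.74. Cxcl5 had 108 against 4.52 CPM from 21 and 18 cells, and a log2 ratio of 4.57, or 3.86 without the richest cell of each library.

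Of 23 myofibroblast and activation genes tested, 4 were higher and none lower, and the list's median was 0.43 beside 0.77 in Smoc2-type cells. Those 4 were Lox, Postn, Ccn2 and Spp1. Periostin (Postn) had 513, 378, 935 and 1317 CPM over the 4 libraries, and was found in 120 of 235 infarcted and 137 of 468 uninjured floxed-labelled cells. Spp1 (osteopontin), at 109 against 18.3 CPM, is marked as possible free RNA because its level in another cell type of the library was over 10 times higher. Cells with Timp1, Cthrc1 and Tnc over the limit were taken out by the rule. With no limit, 168 genes were higher and 232 lower in the pair.

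Clock genes were past 2-fold in both directions in this pair. Of 13 tested, 5 were at least 2-fold higher (Dbp, Nr1d1, Nr1d2, Per3 and Tef) and 3 lower (Arntl, Clock and Npas2), and the list's median was 0.95 beside 0.64 in Smoc2-type cells. Dbp, an output factor of the clock, had 27.3, 5.30, 21.6 and 123 CPM over the 4 libraries. Nr1d1 had 114, 25.4, 32.4 and 134 CPM, and Arntl (BMAL1), the clock activator, 62.1, 73.2, 27.0 and 17.6 CPM. Per3 had 54.4 against 11.9 CPM. The sources used here do not give the hour of collection. This pair and the one between uninjured libraries share the uninjured floxed-labelled library, so values low or high in it count in both.

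Glycolysis, chemokine and early response lists had medians above that of all genes. Of 19 glycolysis and hypoxia genes 5 were higher and none lower (median 0.68 beside 0.94 in Smoc2-type cells), among them the lactate transporter Slc16a3 at 35.8 against 6.55 CPM and the enolase Eno1 at 123 against 46.8. Of 18 chemokine and cytokine genes 4 were higher and none lower (median 0.56 beside 0.75), and 2 of those, Cxcl2 and Saa3, are marked as possible free RNA. The oncostatin M receptor Osmr, one of the others, had 88.6 against 32.3 CPM. Of 26 dissociation and immediate-early genes 9 were higher and none lower (median 0.35 beside 0.07). The leukocyte marker sum in these cells was 321 against 81.4 CPM and the endothelial sum 72.6 against 441. The 12 collagens had none past 2-fold and a median of 0.16, with Col3a1 at 4882 against 2774 CPM.

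Among members, all within the limit on Timp1, Cthrc1 and Tnc, the genes most below the uninjured level were largely those of the tendon-type cells. Fmod had 0 against 79.4 CPM, at least 79.8-fold lower, Chad 0 against 72.1, at least 72.4-fold lower, Thbs4 1.99 against 126 and Comp 26.5 against 188. The log2 ratio of Thbs4 was -5.98 within the limit and 0.11 with no limit, so its low level holds only for cells within it. Ecrg4 had 8.62 against 143 CPM. Without the tendon-type cells the log2 ratio of Ecrg4 was 0.74, and the pair had 97 genes higher and 101 lower. Cytl1, a secreted cytokine-like protein, had 9.29 against 71.9 CPM, Angptl7 30.5 against 152, Gm8797 12.9 against 138 and the histone gene Hist1h4d 16.3 against 81.0.

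**Figure D5:**
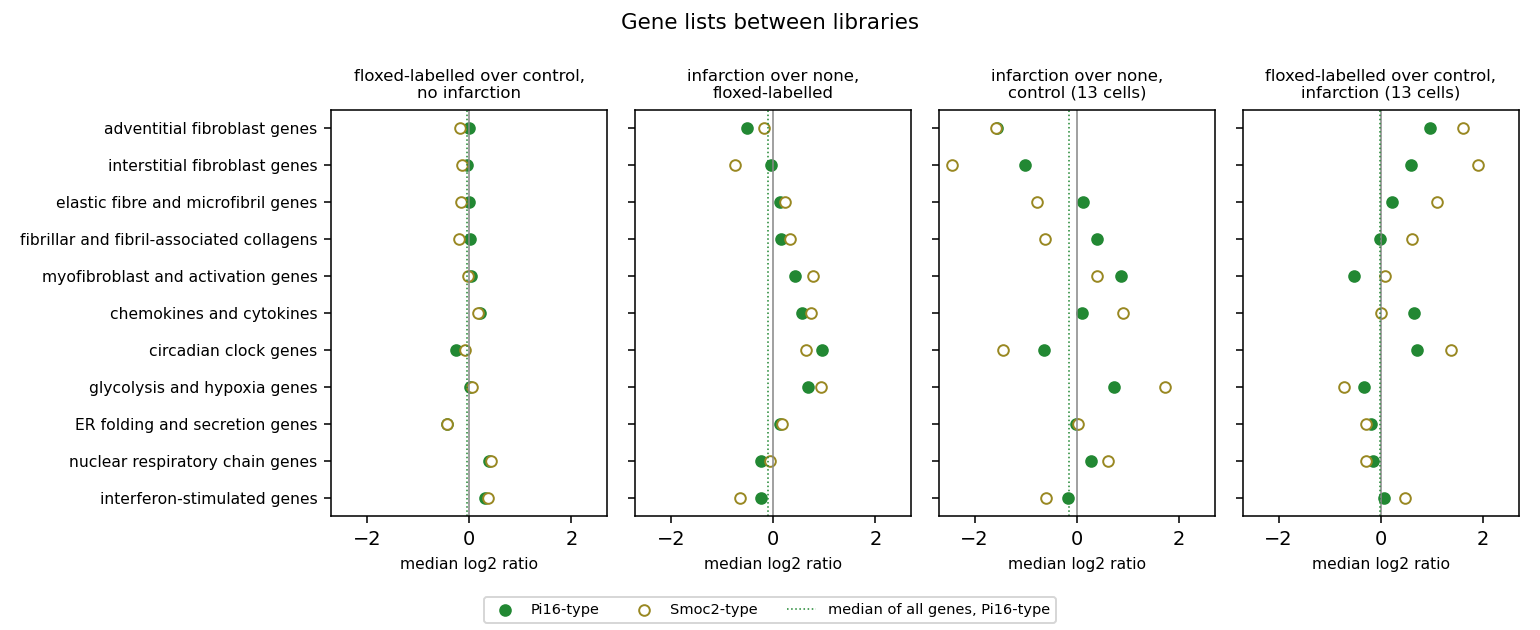
Each panel plots the median log2 ratio of 11 gene lists between a pair of libraries, in Pi16-type (filled) and Smoc2-type (open) cells, with a dotted line at the median of all genes in Pi16-type cells. The adventitial list lies at -0.00 between uninjured libraries, at -0.52 after infarction in the floxed-labelled and at -1.56 in the control library, where 13 cells stand for the infarcted heart.

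The comparisons with the infarcted control library rest on its 13 Pi16-type cells and 184983 UMIs. Infarction over no injury in the control gave 513 of 6387 genes at least 2-fold higher (8.03%) and 1064 lower (16.7%), or 719 and 835 with median-of-ratios scaling, which shifts the median of all genes by 0.16 from -0.15. Of 26 adventitial genes 18 were lower and 1 higher, Has1, and the list's median was -1.56 beside -1.58 in Smoc2-type cells. Sema3c had 21.6 against 356 CPM (log2 -4.04, -5.92 to -2.68, from 4 UMIs), and Dpp4 5.41 against 88.4 from 1 UMI. C7 had 5.41 against 338 CPM and Myoc, the matrix protein myocilin, 10.8 against 349, with log2 ratios of -5.97 and -5.01 and 1 and 2 UMIs. Pamr1, Lims2, Olfml1, Col4a3 and Tmem63a each had a single UMI there, with log2 ratios between -4.14 and -3.73.

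Lox and Ier3 were above the uninjured control level in several of the 13 cells. Lox had 454 against 21.6 CPM, a log2 ratio of 4.40 (3.95 to 4.84), in 7 of 13 cells, beside 2.02 in Smoc2-type cells. Ier3 had 346 against 41.5 CPM (log2 3.06, 2.62 to 3.48), also in 7 cells. Single cells carried others: 1 cell held 32 of 37 UMIs of Il6, 33 of 39 of the cell cycle gene Stmn1, 28 of 31 of Cks2, 27 of 31 of Cenpa and 57 of 64 of the leukocyte granule gene Srgn. Their log2 ratios were 7.72, 6.10, 5.56, 5.47 and 5.12, and 7.03, 3.82, 2.48, 2.79 and 2.04 without the richest cell of each library. Saa3, Angptl4 and Tmem176a had log2 ratios of 4.01, 3.67 and 3.14. In these cells the leukocyte markers summed to 616 against 94.1 CPM, with Cd79a and Cd3e at 0. Their part in these ratios was not tested.

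Between the infarcted libraries, floxed-labelled over control, 518 of 6089 genes were 2-fold or more higher (8.51%) and 355 lower (5.83%). This pair shares the infarcted control with the pair above. Of 25 adventitial genes 10 were higher and 1 lower, and the list's median was 0.96 beside 1.61 in Smoc2-type cells. Myoc had 266 against 10.8 CPM (log2 4.62, 2.76 to 7.67), C7 104 against 5.41 (4.27, 1.78 to 9.58) and the apolipoprotein Apod 318 against 27.0 (3.56, 2.33 to 5.18). Cxcl14 had 273 against 0 CPM, at least 16.8-fold higher, found in 48 of 235 and 0 of 13 cells. Cxcl5, Lims2, Ythdf3, Pamr1, Tmem87b and Glul, the other named genes on this side, had log2 ratios of 3.32, 3.38, 3.35, 3.29, 3.27 and 3.06, from 1 to 4 UMIs in the control. The genes lowest, Cks2, Cenpa, Stmn1, Srgn, Il6, Mbd1, Clu, Angptl4, Gm12840 and Hmgn2, had log2 ratios between -3.77 and -2.24, and without the richest cell of each library those of Cks2, Cenpa, Stmn1, Il6, Angptl4, Gm12840 and Hmgn2 were between -1.82 and -1.04 and that of Srgn -0.21. Mbd1 and Clu stood at -2.50 and -2.92 without them. On the higher side the ratios of C7, Lims2, Ythdf3, Pamr1 and Tmem87b were then lower bounds of at most 2.43, since the control had no UMI of them left. Of 26 myofibroblast and activation genes 2 were higher and 6 lower, Lox among the lower, and the list's median was -0.53 beside 0.07.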

How the data were processed

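The authors deposited raw UMI counts per barcode and gene for 4 libraries, made with Cell Ranger 5.0.1 on mm10, per the submitters' processing notes, from 3' droplet libraries loaded with 16000 cells each, per the labels' protocols. The 32287 features included eGFP and MerCreMer. The members and gene lists were chosen with earlier results of these data known. UMIs were summed over the Pi16-type and the Smoc2-type cells of each library and scaled to CPM. A log2 ratio was computed where 1 of the sums held over 3 UMIs; a 0 was raised to 3 UMIs over the sum, which makes the ratio a bound. The type contrast kept genes with a mean of at least 20 CPM over the 8 sums, and pairs of libraries kept genes with a mean of 20 CPM or more and 10 UMIs or more in a sum. Intervals of ratios are exact conditional and those of shares exact (Clopper-Pearson), both at 95%, and cover counting error only. No p-value was computed, as each group is 1 library.

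Named genes were the 15 highest and 15 lowest of the type contrast among genes at least 2-fold the same way in every library with at least 50 CPM in the higher type, and the 10 highest and 10 lowest of each pair with at least 50 CPM and 30 UMIs in a sum. Rule genes, mitochondrial genes and possible free RNA (under 0.1 of the CPM in another cell type) were left out of that choice, and up to 4 members of a list were added each way. A few genes that met this rule are not reported here. Doublets were not removed in the values given; Scrublet scores (scanpy 1.11.5), cut at the rate expected for the barcodes of each library, marked 13, 29, 1 and 8 Pi16-type cells. Its automatic line marked 9 of 10361 barcodes in 1 library and was not used. Alternatives were the depth, mitochondrial, margin and limit settings of the rule, thinning, doublet removal, scaling, filters and fold lines. Python 3.11.15, NumPy 2.4.6, SciPy 1.17.1 and pandas 2.3.3 were used, and the computation was tested on simulated data. Gene positions are those of GENCODE M21.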

Additional observations from a re-analysis of the deposited data

Results flagged for a closer look

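In 4 genes the ratio of floxed-labelled to control Pi16-type cells had opposite directions without and after infarction. The log2 ratios without and after infarction were -1.53 and 4.27 for C7, -4.28 and 3.32 for Cxcl5, -2.16 and 2.05 for Nr1d1, and -1.82 and 2.37 for Nr1d2. In 3 of them the ratio of infarction to no injury was also opposite in the control and the floxed-labelled pair. Those log2 ratios were -3.02 and 4.57 for Cxcl5, -1.81 and 2.40 for Nr1d1, and -1.99 and 2.20 for Nr1d2. The difference between the pairs was not tested, since each group is 1 library. The infarcted control sum held 1 UMI of C7, 2 of Cxcl5, 6 of Nr1d1 and 3 of Nr1d2. In the uninjured control 1 cell held 354 of 370 UMIs of Cxcl5, and without the richest cell of each library its ratio without infarction was 0.039, so the opposite direction rests on that cell. The -3.02 uses the same UMIs.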

How the results depend on the processing

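With a margin of at least 2 UMIs the share of Pi16-type cells was 18.6% and 20.7% in the uninjured control and floxed-labelled libraries, and with no limit on Timp1, Cthrc1 and Tnc 5.58% and 27.7% in the infarcted ones. The type contrast, 34 genes higher and 2 lower, gave 3 and 1 when Pi16 and Smoc2 were counted in thinned cells. It gave 56 and 6 with no filter on low values, 74 and 15 at 1.5-fold, and 33 to 59 and 4 to 8 without 1 library in turn. The lower count was also 4 with the margin, 4 with doublets removed, 1 with no limit and 1 with median-of-ratios scaling.

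Floxed-labelled over control without injury, 21 higher and 31 lower, gave 34 and 48 when CPM was averaged over cells, 835 and 546 with no filter and 177 and 243 at 1.5-fold. After infarction, 518 and 355 became 191 and 71 with no limit, 1151 and 1317 with no filter and 1187 and 980 at 1.5-fold; the margin gave 576 lower and averaging CPM over cells 851 higher. Infarction over no injury in the control, 513 and 1064, gave 1396 and 1847 with no filter and 1165 and 1989 at 1.5-fold. In the floxed-labelled pair, 99 and 108 became 168 and 232 with no limit, 723 and 1230 with no filter and 250 and 491 at 1.5-fold. More genes are tested with no filter, and the 1.5-fold line is lower by construction; the cause of the other moves was not tested.

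Single named genes had 1083 values under alternatives, of which 939 stayed within their interval or spread, 139 moved and 5 reversed. Reversed was Cxcl5 without injury (0.039 without its richest cells). Between the infarcted libraries Cks2 (0.10 with Pi16 and Smoc2 counted in thinned cells) and Clu (1.68 with doublets removed) reversed. In the floxed-labelled pair Thbs4 (0.11 with no limit) and Ecrg4 (0.74 without tendon-type cells) did. That last setting and the one without the richest cell were chosen after seeing the data. No paired analysis was possible because no group holds more than 1 library. The infarcted control values are limited by 13 cells and 184983 UMIs.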

Other observations

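Fibroblasts with more Pi16 than Smoc2 UMIs that were over the limit on Timp1, Cthrc1 and Tnc numbered 32 in the infarcted control and 128 in the infarcted floxed-labelled library. In the latter, Mfap5 stood at 3285 CPM in them, against 2149 CPM in the Pi16-type cells within the limit, and Cilp at 563 against 269 CPM. Sema3c stood at 56.6 against 120 CPM, Tmem100 at 55.5 against 122 and Cd248 at 189 against 275. Tcf21, at 33.6 against 88.9 CPM, and Hsd11b1, at 33.9 against 143, were also lower in them. Their median depth was 21562.5 UMIs, against 11768 UMIs for the cells within the limit. In the infarcted control the 32 cells had 2648 CPM of Mfap5, 472 of Cilp, 19.6 of Sema3c and 49.7 of Tcf21.

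Prg4 (lubricin), a lubricating matrix glycoprotein, was found in 176 of 235 Pi16-type cells of the infarcted floxed-labelled library and in 144 of 468 of the uninjured one. Its level over the 4 libraries was 434, 261, 216 and 974 CPM in Pi16-type cells and 38.2, 16.8, 96.7 and 541 CPM in Smoc2-type cells. In the uninjured control 1 cell held 443 of its 1830 UMIs.

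Fibroblasts within the limit on Timp1, Cthrc1 and Tnc in which neither Pi16 nor Smoc2 was found numbered 85, 245, 86 and 86. Their median depth was 1150 and 1037 UMIs in the uninjured libraries and 11842.5 and 6500.5 UMIs in the infarcted ones.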
